A study of Mus musculus with 13 samples.

Results

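Reg3b, Reg3g, Gkn2 and Sftpd are 4 genes for secreted proteins of mucosal surfaces, and their RNA was followed here across fibroblasts, induced hepatocyte-like cells and cultured hepatocytes of the mouse. They were picked for their pattern on these same arrays, by gene symbol, and make up 4 of the 19087 genes measured, each through 1 probe. Because the levels chose the genes, their values are given as a description, without a p-value. The induced cells (iHep) filled 4 arrays, each from 1 epithelial colony at day 21 after induction, and derived from p19Arf-null tail-tip fibroblasts infected with lentiviruses carrying 3 liver-enriched transcription factors, which the labels do not name. The TTF + 3TF culture (1 array, day 21) was the transduced population, which held fibroblasts as well as epithelial cells. The p19Arf-null hepatocytes (4 arrays, day 21 after isolation) were primary cells described as proliferating in culture. The p19Arf-null embryonic fibroblasts (MEF, 1 array) and tail-tip fibroblasts (TTF, 3 arrays) were at day 42. All groups were p19Arf-null on a C57BL/6-129 background. iHep and hepatocytes grew in modified Block's medium and TTF and MEF in DMEM with serum, so medium and day cannot be told apart from cell type in comparisons with TTF. Whether replicates stem from different animals or cultures is not stated. The p-values therefore rest on array-to-array spread alone, part of which may be technical.

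Reg3b and Reg3g encode small secreted C-type lectins of the Reg family. In the mouse intestine they act on bacteria close to the epithelium, and epithelial cells induce them through the cytokine IL-22 and the transcription factor Stat3. Gkn2 encodes gastrokine 2, a secreted BRICHOS-domain protein of the stomach surface mucosa, whose human counterpart binds the trefoil peptide TFF1. Sftpd encodes surfactant protein D, a collectin that binds microbial sugars in the lung and on other mucosal surfaces. None of the 4 is a standard hepatocyte marker, although Reg3b also carries the older name pancreatitis-associated protein, from its induction in the inflamed pancreas.

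A level is the log2 ratio of an intensity to the 75th percentile of its array, and that percentile was 1140 to 2260 intensity units. A probe was taken as above the limit of measurement when it exceeded 3 times the local floor of its array, which 63.2% of features did on iHep replicate 2, the lowest share, and 83.0% on iHep replicate 3, the highest. The colonies were more alike in pairs. Replicates 1 and 2 had a Spearman correlation over features of 0.950 and replicates 3 and 4 one of 0.978, whereas colonies of different pairs gave values from 0.886 to 0.919. Xist, which coats the inactive X chromosome, reached 2.02 and 1.95 on iHep replicates 3 and 4, and it was under the limit on iHep replicates 1 and 2, on the TTF + 3TF array and on every TTF array. On the MEF array it was at 1.08. Whether the colonies and the TTF cultures came from the same animals is not stated, so a difference between animals cannot be told apart from induction in iHep minus TTF. Of 10 measured epithelial markers 8 rose in iHep and 8 in hepatocytes over TTF, of 11 fibroblast markers 7 fell in iHep while 1 fell and 1 rose in hepatocytes, and of 10 hepatocyte markers 7 rose in each (limma, adjusted p under 0.05 and at least 2-fold). Over all genes 6.86% rose and 6.52% fell in iHep, and 7.47% rose and 4.91% fell in hepatocytes. Of 7 macrophage and leukocyte markers 6 rose in hepatocytes and 2 in iHep over TTF. All 7 lay above the limit on every hepatocyte array, and 4 to 6 of them on the iHep arrays and 5 or 6 on the TTF arrays.

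The promoters are shown because Reg3b and Reg3g, which stand in 1 cluster on chromosome 6, had the same high groups, as did Gkn2 further along the same chromosome. RefSeq sequence of build GRCm38.p6 was matched for 3 of the 4 genes and not for Sftpd. Each window holds the 250 bases before the annotated start, 5′ to 3′ on the gene's strand, at chr6:78370635-78370884 (plus strand) for Reg3b, chr6:78468875-78469124 (minus strand) for Reg3g and chr6:87373115-87373364 (plus strand) for Gkn2. Capitals mark matches, on either strand, to the letters searched for, which were the TATA box TATAAA, the forkhead string TGTTTAC with its variants TATTTAC, further TGTTTGC and lastly TGTTTAT, the GATA factor string AGATAA with its variant TGATAA, the STAT factor string TTCNNNGAA with its special case TTCCNGGAA, and the C/EBP factor string TTGCNNAA.
Reg3b: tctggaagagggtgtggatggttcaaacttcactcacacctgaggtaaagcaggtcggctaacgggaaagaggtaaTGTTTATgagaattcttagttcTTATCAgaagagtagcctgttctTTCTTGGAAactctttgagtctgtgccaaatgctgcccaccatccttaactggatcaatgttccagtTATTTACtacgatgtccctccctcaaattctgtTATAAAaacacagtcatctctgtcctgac
Reg3g: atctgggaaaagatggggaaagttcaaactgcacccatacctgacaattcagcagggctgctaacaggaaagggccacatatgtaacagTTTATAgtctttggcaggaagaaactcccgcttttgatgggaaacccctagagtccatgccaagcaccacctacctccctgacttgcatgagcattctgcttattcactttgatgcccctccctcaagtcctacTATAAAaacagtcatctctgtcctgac
Gkn2: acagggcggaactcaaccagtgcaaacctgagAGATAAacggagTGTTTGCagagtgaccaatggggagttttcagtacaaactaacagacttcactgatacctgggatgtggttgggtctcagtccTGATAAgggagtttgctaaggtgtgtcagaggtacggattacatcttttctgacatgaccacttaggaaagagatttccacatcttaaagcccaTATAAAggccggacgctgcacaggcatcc
All 3 windows held TATAAA on the gene's strand, starting 29, 27 and 29 bases before the start in Reg3b, Reg3g and Gkn2, whereas 12.4% of 32851 promoter windows of the same length held it on either strand. Reg3b matched 2 forkhead strings, 1 GATA string and TTCNNNGAA. Gkn2 matched 1 forkhead string and 2 GATA strings. Besides TATAAA, which it also held on the other strand, Reg3g matched none of the strings. Over all promoter windows 13.2% held a forkhead string, 16.6% a GATA string, 7.02% the STAT string and 9.56% the C/EBP string. A match says only that these letters are present. Aligned end to end, the Reg3b and Reg3g windows were identical at 68.9% of 257 columns and shared an unbroken run of 20 bases that ended at the base before each start. The other pairs among the Reg1, Reg2, Reg3a, Reg3b, Reg3d, Reg3g, Gkn1, Gkn2 and Gkn3 windows lay between 47.1% and 58.5%.

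Reg3g varied least between colonies. Its intensity was 442000, 215000, 516000 and 503000 on the iHep arrays (replicates 1 to 4) and 337000 on the TTF + 3TF array. It was 13, 2.85, 5.02 and 17.8 on the hepatocyte arrays, 175 on the MEF array and 9.47, 14.7 and 4.15 on the TTF arrays. Every iHep array and the TTF + 3TF array were therefore far above every hepatocyte, MEF and TTF array, and 1 of 4 hepatocyte and 1 of 3 TTF arrays lay above the limit. In level, iHep averaged 7.72 ± 0.62 (SD, n = 4), TTF + 3TF 7.32, hepatocytes -7.90 ± 1.40 (n = 4), MEF -3.67 and TTF -7.82 ± 0.998 (n = 3). TTF + 3TF lay inside the iHep range of 6.81 to 8.11, hepatocytes and TTF overlapped, and the single MEF array stood above all 7 arrays of these 2 groups. In bulk RNA of this kind, fewer cells that express a gene and less RNA per cell cannot be told apart, which bears most on the TTF + 3TF mixture.

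Reg3b had the same high groups but spread more within them. Its intensity was 47900, 31100, 248000 and 357000 on the iHep arrays and 161000 on the TTF + 3TF array. The hepatocyte arrays gave 18, 3.05, 392 and 326, the MEF array 5.71 and the TTF arrays 4.19, 8.83 and 4.32. iHep replicates 3 and 4 were brighter than replicates 1 and 2, and hepatocyte replicates 3 and 4 stood above the other hepatocyte arrays, with 3 of 4 hepatocyte arrays above the limit and no MEF or TTF array. The median level of 11 fibroblast markers was also higher on hepatocyte replicates 3 and 4 (2.33 and 2.44) than on replicates 1 and 2 (-1.77 and -1.72), and its part in the Reg3b values was not tested. The mean level was 5.84 ± 1.75 in iHep (SD, n = 4), 6.25 in TTF + 3TF, -5.14 ± 3.18 in hepatocytes (n = 4), -8.61 in MEF and -8.44 ± 0.60 in TTF (n = 3). TTF + 3TF fell within the iHep range, and the hepatocyte range of -9.27 to -2.50 took in every TTF array. Each lectin probe was above the limit on arrays where the other was not. On hepatocyte replicate 3 Reg3b was at 77.9 times the local floor and Reg3g at 1.06 times, and on the MEF array Reg3g was at 53.5 times and Reg3b at 1.71 times.

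Gkn2 differed most between colonies. Its intensity was 104000, 189, 601000 and 580000 on the iHep arrays and 114000 on the TTF + 3TF array, against 53.5, 34.6, 15.4 and 20.9 on the hepatocyte arrays, 3.34 on the MEF array and 12.3, 10.7 and 9.29 on the TTF arrays. iHep replicate 2 lay 3265-fold under the brightest colony, yet at 18.2 times its local floor it was above the limit and its level of -3.34 was above every hepatocyte and TTF array. The mean level was 4.77 ± 5.54 in iHep (SD, n = 4), 5.76 in TTF + 3TF, -6.02 ± 1.22 in hepatocytes (n = 4), -9.38 in MEF and -7.46 ± 0.32 in TTF (n = 3). Without iHep replicate 2 the iHep mean was 7.47. All 4 hepatocyte and 2 of 3 TTF arrays were above the limit and MEF was not, and the lowest hepatocyte and the highest TTF level differed by -0.04, so those groups just overlapped.

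Sftpd was high in the same groups. The iHep arrays gave 1380, 13900, 17500 and 13600 and the TTF + 3TF array 6250, whereas the hepatocyte arrays gave 31.8, 8.03, 32.5 and 69.2, the MEF array 10.7 and the TTF arrays 7.67, 11.4 and 4.6. Here iHep replicate 1, not replicate 2, was the lowest colony. The mean level was 2.13 ± 1.72 in iHep (SD, n = 4), 1.57 in TTF + 3TF, -6.04 ± 1.31 in hepatocytes (n = 4), -7.70 in MEF and -7.99 ± 0.72 in TTF (n = 3). TTF + 3TF lay within the iHep range, hepatocytes and TTF overlapped, and MEF lay within the TTF range, with 3 of 4 hepatocyte arrays, the MEF array and 1 of 3 TTF arrays above the limit.

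**Figure D1:**
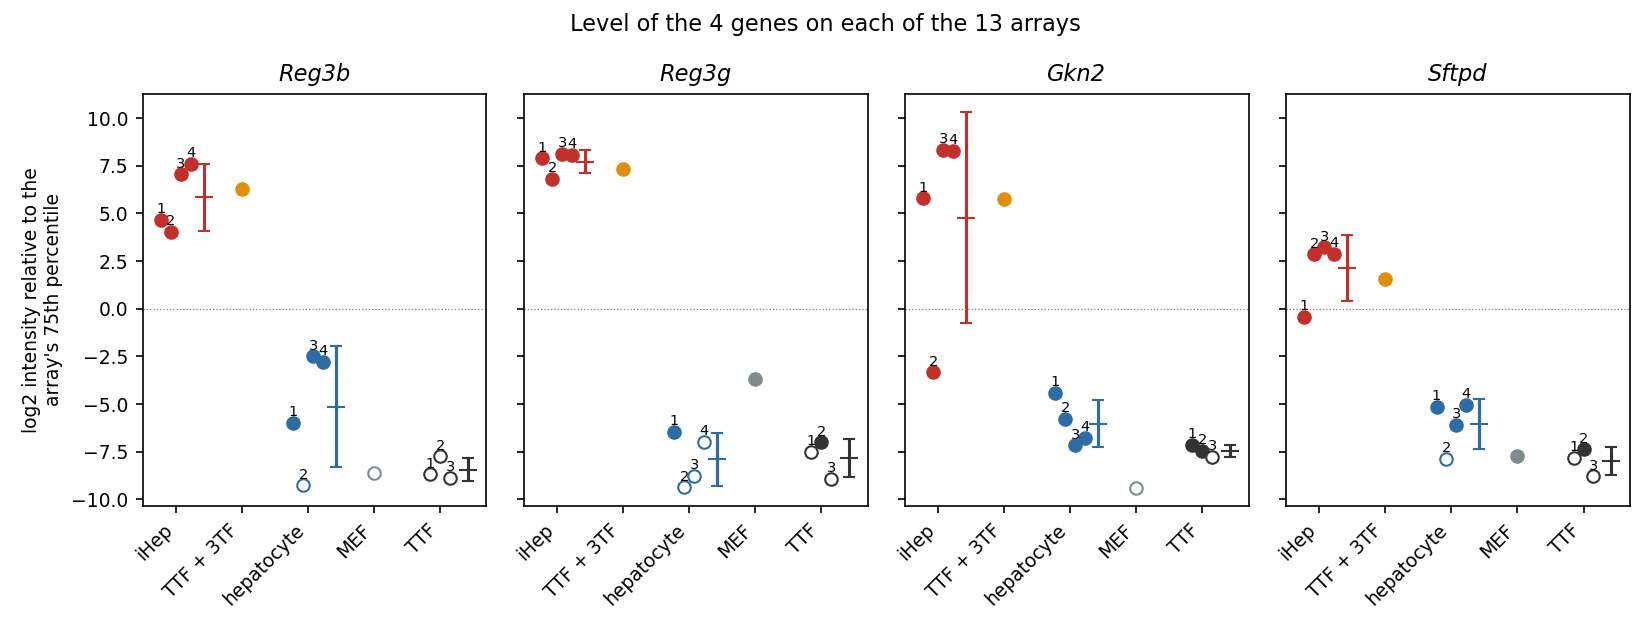
Level of Reg3b, Reg3g, Gkn2 and Sftpd (log2 of intensity over the 75th percentile of the array) on each array, by group. Numbers give the replicate, open circles are values not above the limit of measurement, and bars are the mean ± SD of groups with several arrays. For each gene all iHep arrays and the TTF + 3TF array lie above all hepatocyte and TTF arrays, with Gkn2 on iHep replicate 2 the lowest of them at -3.34.

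Between groups, the difference was largest for Reg3g. The iHep mean exceeded the TTF mean by 15.54 for Reg3g, 14.27 for Reg3b, 12.23 for Gkn2 and 10.12 for Sftpd on the log2 scale, which ranked 1st, 2nd, 8th and 29th among the 19087 genes. For Reg3b, with no TTF array above the limit, this was at least 9821-fold. For the other 3 genes 1 or 2 TTF arrays lay just above the limit, so the size of the difference depends on the floor. Each of the 4 genes had every iHep array above every TTF array, as did 13.5% of all genes, but it was this contrast that chose them. Against hepatocytes the iHep mean was higher by 15.62 for Reg3g, 10.97 for Reg3b, 10.79 for Gkn2 and 8.17 for Sftpd, with ranks of 1, 2, 4 and 16. Reg3g was not above the limit on 3 of 4 hepatocyte arrays, and Reg3b and Sftpd each on 1 of 4, so these sizes and ranks depend on the floor as well. All 4 had every iHep array above every hepatocyte array (9.69% of all genes). The iHep arrays are shared by both contrasts, so one does not support the other.

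The TTF + 3TF array exceeded the TTF mean by 15.14 for Reg3g, 14.69 for Reg3b, 13.21 for Gkn2 and 9.56 for Sftpd (log2), and lay above every TTF array for all 4 (24.1% of all genes). It exceeded the hepatocyte mean by 15.22, 11.39, 11.78 and 7.60 in the same order of genes, and lay above every hepatocyte array for all 4 (22.8% of all genes). The iHep mean minus the TTF + 3TF level was 0.40 for Reg3g, -0.42 for Reg3b, -0.99 for Gkn2 and 0.56 for Sftpd, and in each case the single array lay inside the range of the colonies. Hepatocyte minus TTF was 3.30 for Reg3b, 1.95 for Sftpd, 1.43 for Gkn2 and -0.08 for Reg3g (at least 4.90-fold for Reg3b), with overlapping groups in all 4 cases, while 18.2% of all genes had every hepatocyte array above every TTF array. MEF minus TTF, from 1 MEF array, was 4.15 for Reg3g and 0.29 for Sftpd. Reg3b was under the limit on both sides, and Gkn2 was not above the limit on the MEF array.

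**Figure D2:**
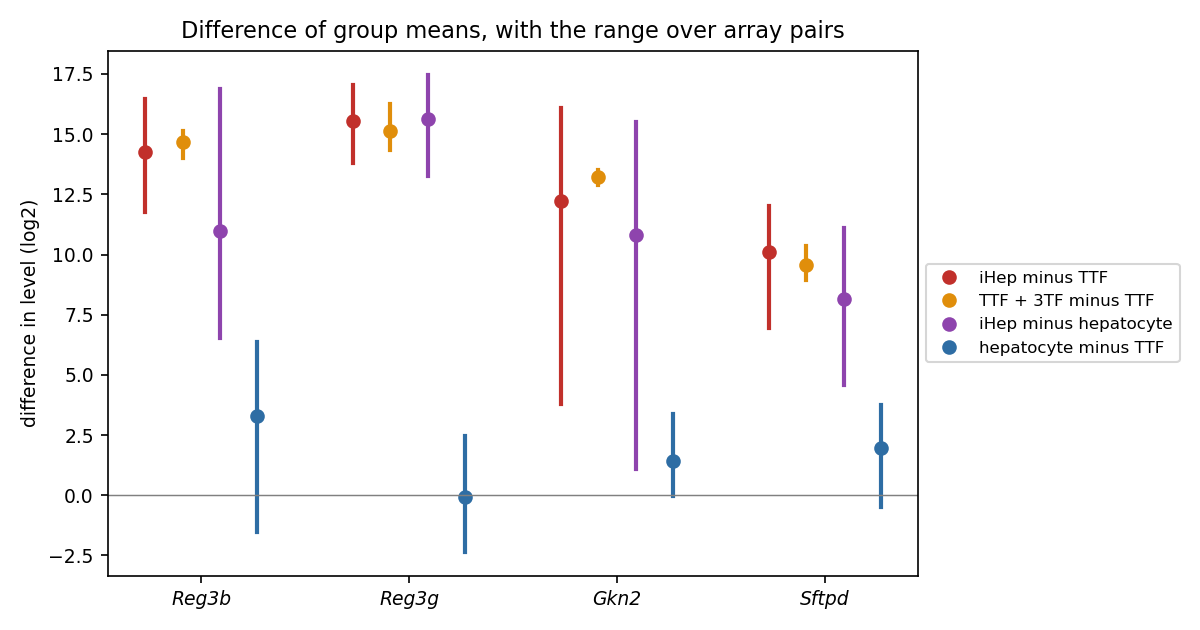
Difference of group means in log2 level for the 4 genes (points), with lines from the smallest to the largest difference between any array of one group and any array of the other. For Gkn2 the lines run from 3.78 to 16.10 for iHep minus TTF and from 1.07 to 15.49 for iHep minus hepatocyte, while all hepatocyte minus TTF lines include 0.

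The mean level of colonies 3 and 4 was above that of colonies 1 and 2 for each of the 4 genes, by an amount that differed by gene. For Sftpd this rested on colony 1 (-0.44), since colony 2 (2.86) was level with colony 4 (2.88). From dimmest to brightest colony the scaled intensity differed 2.46-fold for Reg3g, 11.9-fold for Reg3b, 12.7-fold for Sftpd and 3265-fold for Gkn2. The SD over the 4 colonies was 5.54 for Gkn2, 1.75 for Reg3b, 1.72 for Sftpd and 0.62 for Reg3g. The mean of colonies 3 and 4 minus that of colonies 1 and 2 was 7.08 for Gkn2, 2.97 for Reg3b, 1.84 for Sftpd and 0.75 for Reg3g. Fibroblast and epithelial markers moved with this split. The median level of 11 fibroblast markers was -1.65 and -1.45 for colonies 3 and 4, whereas colonies 1 and 2 had -6.06 and -4.80, and that of 10 epithelial markers was 1.58 and 2.17 on replicates 3 and 4, against -0.73 and -0.16 on replicates 1 and 2. Xist split the same way, at 2.02 and 1.95 on colonies 3 and 4 and under the limit on colonies 1 and 2. The median of 10 hepatocyte markers did not, at 1.27, 0.38, 0.25 and 0.62 on replicates 1 to 4. The part of cell type or of a difference between animals in the split was not tested. Colonies 3 and 4 lay within 0.02 to 0.54 of each other for these genes. Colonies 1 and 2 lay 0.66 apart for Reg3b, 1.08 for Reg3g, 3.29 for Sftpd and 9.14 for Gkn2. With colonies 3 and 4 alone the iHep mean minus the TTF mean was 15.76 for Reg3b, 15.92 for Reg3g and 15.77 for Gkn2, and with colonies 1 and 2 alone it was 12.78, 15.16 and 8.68. For Sftpd the values were 11.04 with colonies 3 and 4 and 9.20 with colonies 1 and 2. Gkn2 reached 86.7% of the intensity of the brightest feature on iHep replicate 3 and 82.0% on replicate 4, and Reg3g 31.6% to 74.5% on the iHep arrays, so the top values stand close to the upper end of the scale. Saturation flags were not used here, and their part in these values was not tested.

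The other Reg genes, which lie between Reg3b and Reg3g in the order Reg3d, Reg3a, Reg2, Reg1 on the gene map, did not match them. With Reg4, a gut member mapped elsewhere, 2 of 5 were called higher in iHep than TTF and 3 were not called, with a median difference of 3.90 against 0.07 over all genes, where 13.4% of genes were called. Reg4 rose by 7.95 ± 1.1 (SE, n = 4 and 3, adjusted p = 0.00086), which was at least 166-fold with no TTF array above the limit. Its levels were -1.32, 0.33, -0.48 and 0.92 on the iHep arrays and -2.42 on the TTF + 3TF array. Reg1 rose by 4.69 ± 1.40 (adjusted p = 0.049), a call that ended in 15 of 22 alternatives, such as leaving out any 1 TTF array (adjusted p = 0.084 to 0.19). Reg1 lay at -5.06, -5.98, -1.28 and 0.83 on the iHep arrays, so it was high on replicates 3 and 4, and at -2.25 on the MEF array. Reg3a lay at -5.84, -6.42, -1.12 and -0.45 on the iHep arrays. It was not called against TTF (3.90 ± 1.31, adjusted p = 0.077), but was called without iHep replicate 1 (0.037) or 2 (0.021). Against hepatocytes, where Reg3a was not above the limit on any array, it rose by 5.54 ± 1.21 (n = 4 and 4, adjusted p = 0.013), at least 15.6-fold, and this call ended with a pseudocount of 16 (adjusted p = 0.052). Reg2 was not above the limit on any iHep array and Reg3d only on iHep replicate 1. In all, 2 of 5 (Reg3a and Reg4) were called higher in iHep than hepatocytes, where 13.7% of all genes were called, and 0 of 5 between hepatocytes and TTF (12.4% of all genes, and 0 of 5 also at an unadjusted p under 0.05 by limma).

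For Gkn1, Gkn3 and the trefoil genes colonies 3 and 4 were again the highest, but colony 1 did not always lie with colony 2. In the list of gastrokines and stomach mucosa, 4 of 17 genes were called higher in iHep than TTF, 0 lower and 13 not (median 2.45; 9 higher and 0 lower at an unadjusted limma p under 0.05), and against hepatocytes 3 of 17 higher and 14 not (median 2.19). Over all genes 6.86% were called higher in iHep than TTF and 6.25% higher than hepatocytes. Gkn1 and Gkn3 are the neighbours of Gkn2 on either side. Gkn1 lay at -4.61, -7.49, 2.80 and 2.49 on the iHep arrays, at -6.70 on the TTF + 3TF array and at or under -6.43 on every TTF array. It was not called against TTF (5.74 ± 2.12, adjusted p = 0.11), but was without iHep replicate 2 (adjusted p = 0.012). Its call against hepatocytes (6.85 ± 1.97, adjusted p = 0.04, at least 52.8-fold with no hepatocyte array above the limit) ended in 13 of 22 alternatives, among them leaving out any 1 hepatocyte array (adjusted p = 0.072 to 0.089). Gkn3 lay at -2.49, -2.58, 2.66 and 2.80 on the iHep arrays and from -3.86 to -2.43 in TTF, and was not called (3.26 ± 1.27, adjusted p = 0.13), but was without iHep replicate 1 (0.047) or 2 (0.043).

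Tff1, the trefoil peptide that partners gastrokine 2 in human, lay at 5.81, -1.52, 8.53 and 8.53 on the iHep arrays and 5.97 on the TTF + 3TF array. It lay at 2.83, -1.72, -3.26 and -2.70 on the hepatocyte arrays and between -5.40 and -4.33 on the TTF arrays. It rose in iHep over TTF by 10.09 ± 2.24 (adjusted p = 0.012). This call ended without TTF replicate 3 (0.054) or without iHep colonies 3 and 4 (0.076). Against hepatocytes Tff1 was not called (6.55 ± 2.08, adjusted p = 0.058). It was called in 5 of 22 alternatives, among them median scaling (0.04) and leaving out iHep replicate 2 (0.0032) or hepatocyte replicate 1 (0.04). Tff2, a trefoil peptide of gastric gland mucus, lay at -6.03, -5.97, 5.29 and 3.99 on the iHep arrays and 0.34 on the TTF + 3TF array and was not called against TTF (5.71 ± 2.51, adjusted p = 0.18). Tff3, the intestinal trefoil peptide, lay at 1.89, -4.04, 7.95 and 8.02 on the iHep arrays and 4.63 on the TTF + 3TF array. It rose over TTF by 9.59 ± 2.49 (adjusted p = 0.027), but not past the threshold in 8 of 22 alternatives, such as leaving out any 1 TTF array (adjusted p = 0.062 to 0.093). iHep replicate 2 was thus the lowest or next to lowest colony for Gkn1, Gkn2, Gkn3, Tff1, Tff2 and Tff3, and replicates 3 and 4 were the highest. Anxa10, an annexin gene of gastric epithelium, was steadier, at 2.72, 1.1, 3.55 and 3.98 on the iHep arrays. It rose by 9.01 ± 0.67 over TTF (adjusted p = 1.9e-05) and by 9.91 ± 0.62 over hepatocytes (adjusted p = 1.6e-05).

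**Figure D3:**
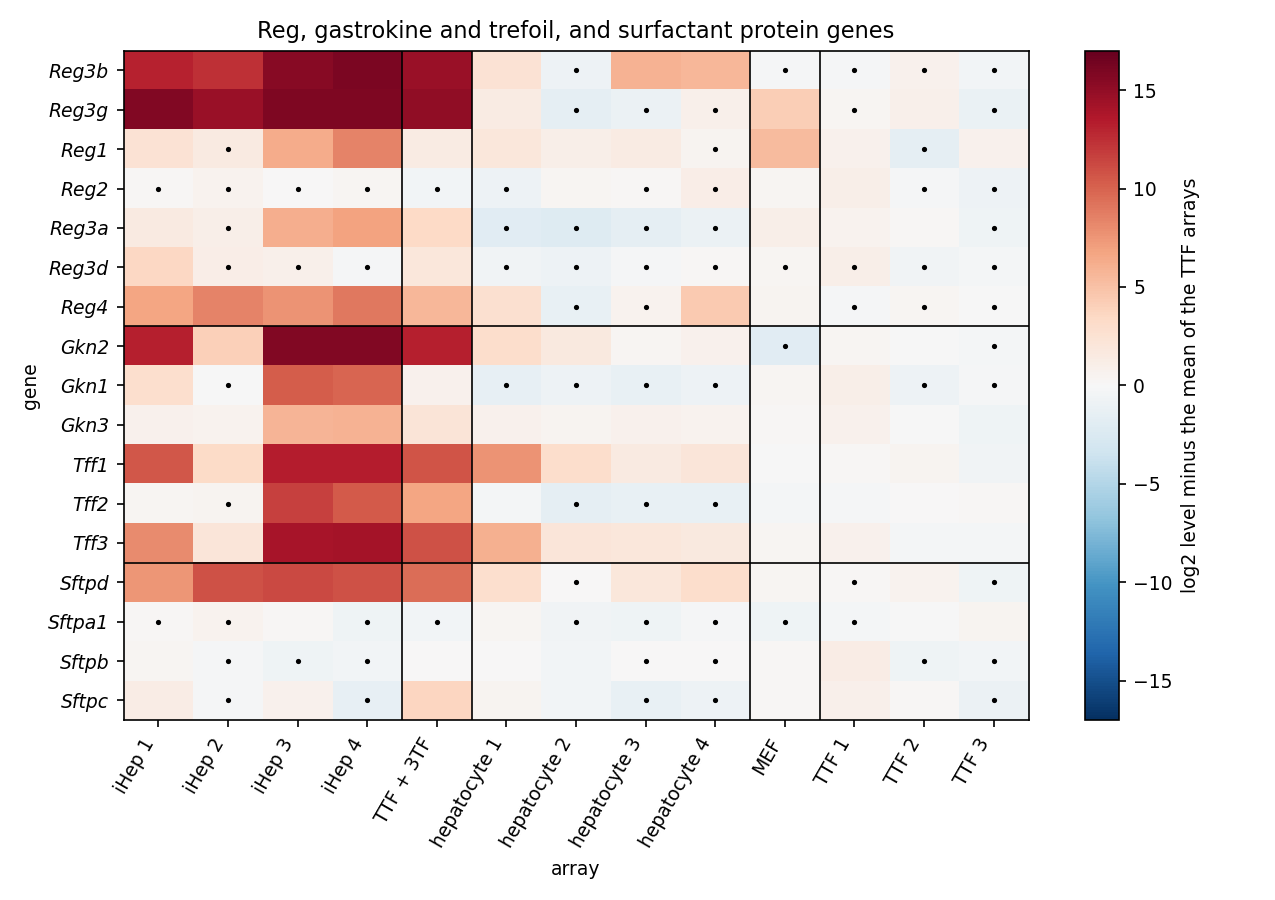
Log2 level minus the mean of the TTF arrays (colour) for Reg genes, gastrokine and trefoil genes and surfactant protein genes (rows) on each array (columns). Black dots mark values not above the limit of measurement. Reg3b, Reg3g and Sftpd are high on all iHep arrays and the TTF + 3TF array. Among the iHep arrays Gkn2, Tff1 and Tff3 are lowest on replicate 2, though above their TTF means, and Tff2 is near its TTF mean on replicates 1 and 2. Sftpa1, Sftpb and Sftpc stay near the TTF level on the iHep arrays.

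Sftpd was not accompanied by the other surfactant protein genes. In the list of surfactant and lung epithelium genes 3 of 13 measured were called higher in iHep than TTF, 1 lower and 9 not (median 0.09). Over all genes 6.86% were called higher and 6.52% lower. Sftpa1, which encodes the sister collectin and stands next but one to Sftpd on chromosome 14, was not called (0.07 ± 0.38, adjusted p = 0.94) and was above the limit on 1 of 4 iHep arrays. Sftpb (-0.25 ± 0.45, adjusted p = 0.78) and Sftpc (0.08 ± 0.66, adjusted p = 0.96), for the hydrophobic surfactant proteins, were not called either. Sftpc lay at -3.48 on the TTF + 3TF array, against -8.48 to -5.91 on the iHep arrays. Nkx2-1, the lung and thyroid homeobox factor, was at -9.10, -7.46, -8.55 and -8.51 on the iHep arrays and not called (0.24 ± 0.38, adjusted p = 0.75). The called genes included Scgb3a1, an airway secretoglobin gene (4.49 ± 0.77, adjusted p = 0.0031), and Abca3, a lipid transporter gene of surfactant-producing cells (3.00 ± 0.27, adjusted p = 5.9e-05). Etv5, an ETS factor gene, fell by 2.15 ± 0.62 (adjusted p = 0.042), a call that ended in 13 of 22 alternatives, among them leaving out any 1 TTF array (adjusted p = 0.083 to 0.13). Against hepatocytes 1 of 13 was higher (7.69%, near the 6.25% of all genes), namely Abca3 (1.96 ± 0.25, adjusted p = 0.00074).

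Among 13 collectins and soluble lectins 3 were higher and 1 lower in iHep than TTF and 9 were not called (median 0.34). The shares over all genes were 6.86% higher and 6.52% lower. Lgals2 and Lgals4, galectin genes of the gut epithelium, rose by 9.19 ± 1.38 (adjusted p = 0.0014) and 7.09 ± 0.92 (adjusted p = 0.00061). Colec12, a scavenger collectin gene, fell by 8.96 ± 1.44 (adjusted p = 0.0021), with 2 of 4 iHep arrays above the limit. Against hepatocytes 3 were higher and 3 lower, beside 6.25% and 7.5% of all genes. The liver collectin gene Mbl2 fell by 9.50 ± 1.23 in iHep relative to hepatocytes (adjusted p = 0.00084), and was at -4.93, -3.40, -7.84 and -7.68 on the iHep arrays and 5.89, 5.14, 0.87 and 2.27 on the hepatocyte arrays. Of these 2 collectins, Sftpd was thus high on the iHep arrays and Mbl2 on the hepatocyte arrays. Lgals4 rose by 6.51 ± 0.86 over hepatocytes (adjusted p = 0.00094), and Itln1, an intestinal intelectin gene, by 5.44 ± 0.99 (adjusted p = 0.0052), at least 14.5-fold. Fcna, a ficolin gene of macrophages, fell by 6.63 ± 0.76 relative to hepatocytes (adjusted p = 0.0004), as macrophage markers also differed between these groups, with 5 of 7 lower in iHep. Their part in the Fcna difference was not tested.

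Gut antimicrobial and mucosal defence genes, the functional company of the Reg3 lectins, rose in 13 of 23 cases in iHep over TTF. The list had 0 lower and 10 not called (median 3.95), beside 6.86% higher and 6.52% lower over all genes. Lcn2, for an iron-sequestering lipocalin, rose by 13.10 ± 0.88 (adjusted p = 9.4e-06, 2 of 3 TTF arrays above the limit) and also in hepatocytes over TTF by 11.57 ± 0.88 (adjusted p = 2.7e-05). S100a9, a calprotectin subunit gene, rose by 9.84 ± 2.33 (adjusted p = 0.017). This call ended without TTF replicate 2 (0.067) or 3 (0.071), or without iHep colonies 3 and 4 (0.11). Against hepatocytes 7 of 23 were higher, 3 lower and 13 not called (median 2.23), beside 6.25% higher and 7.5% lower over all genes. Dmbt1, for a mucosal scavenger receptor glycoprotein, rose by 10.14 ± 0.79 (adjusted p = 5.1e-05), and Muc13, for a membrane mucin of the gut, by 7.28 ± 0.76 (adjusted p = 0.00024). Lyz1 and Lyz2, lysozyme genes of close sequence, were lower in the same comparison, and probes for near-identical genes may share signal. Lyz1 fell by 9.94 ± 1.17 (adjusted p = 0.0005) and Lyz2, also a macrophage marker, fell by 10.03 ± 0.91 (adjusted p = 0.0001).

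For the pathway known to induce Reg3 lectins, 2 of 23 measured genes of IL-22 and IL-6 family signalling were called higher in iHep than TTF (8.70%, near the 6.86% of all genes), 0 lower and 21 not (median 0.35). Il22ra1, the IL-22 receptor subunit gene, was not called (0.33 ± 0.32, adjusted p = 0.58), nor were Stat3 (0.33 ± 0.49, adjusted p = 0.74) and its feedback inhibitor Socs3 (0.97 ± 0.53, adjusted p = 0.29). Bcl3 and Nfkbiz, nuclear IkB family genes, rose by 2.38 ± 0.52 (adjusted p = 0.012) and 2.23 ± 0.51 (adjusted p = 0.015). The Bcl3 call ended without TTF replicate 2 (0.061) or 3 (0.063) and that of Nfkbiz without TTF replicate 1 (0.053) or 3 (0.05). Both calls also ended without iHep colonies 3 and 4 (0.076 for Bcl3 and 0.051 for Nfkbiz). Against hepatocytes 3 of 23 were higher and 20 not called, beside 6.25% higher and 7.5% lower over all genes. Tyk2, a kinase of cytokine receptors, rose by 2.53 ± 0.46 (adjusted p = 0.0051), and Socs3 by 1.92 ± 0.49 (adjusted p = 0.026). The Socs3 call ended without iHep replicate 3 (0.056) or 4 (0.059) or hepatocyte replicate 1 (0.06) or 2 (0.061). It also ended without iHep colonies 3 and 4 together (0.12).

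Among 25 measured transcription factors of gut and lung epithelium, 10 were called higher in iHep than TTF, 0 lower and 15 not (median 1.92), and in hepatocytes over TTF 11 higher and 14 not (median 1.87). Over all genes 6.86% were called higher in iHep than TTF and 7.47% in hepatocytes than TTF. Elf3, an epithelial ETS factor gene, rose by 9.23 ± 1.57 in iHep over TTF (adjusted p = 0.0029), at least 260-fold. Cdx2, the intestinal homeobox gene, rose by 7.10 ± 0.92 (adjusted p = 0.00059). Foxa2 and Foxa3, forkhead factor genes of endoderm, rose by 7.96 ± 0.34 (adjusted p = 5.9e-07) and 4.57 ± 0.68 (adjusted p = 0.0013), the second at least 12.1-fold with no TTF array above the limit. On the single MEF array Foxa2 was at 1.74, above the iHep range of -1.32 to -0.43. The labels do not name the 3 transduced factors, and the part of a transgene in these values was not tested. Foxa1 (-0.32 ± 0.45, adjusted p = 0.72), Gata4 (1.57 ± 0.79, adjusted p = 0.24) and Gata6 (-0.12 ± 0.35, adjusted p = 0.88) were not called. Against hepatocytes 6 of 25 were higher and 4 lower, beside 6.25% and 7.5% of all genes. Pdx1, a homeobox gene of pancreas and duodenum, rose by 4.64 ± 0.71 (adjusted p = 0.0022), Ehf, an epithelial ETS factor gene, by 4.27 ± 0.36 (adjusted p = 6.2e-05) and Cdx2 by 4.02 ± 0.85 (adjusted p = 0.011). Foxa1 fell by 4.60 ± 0.41 (adjusted p = 9.2e-05) and Foxa2 by 3.57 ± 0.31 (adjusted p = 8.2e-05) relative to hepatocytes. Nr5a2, a nuclear receptor gene of liver and pancreas, fell by 4.62 ± 0.73 (adjusted p = 0.0025), and Gata6 fell by 1.95 ± 0.33 (adjusted p = 0.0035).

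The exocrine pancreas is another source of Reg proteins. Of 17 measured markers of it, 3 (17.6%) were called higher in iHep than TTF, beside 6.86% of all genes, and 14 were not called (median 0.64). Against hepatocytes 2 (11.8%) were higher, beside 6.25% of all genes. Pnliprp1, a pancreatic lipase-related gene, rose over TTF by 3.98 ± 0.62 (adjusted p = 0.0018) and Bhlha15, a secretory cell factor gene, by 3.65 ± 0.52 (adjusted p = 0.0011). Over hepatocytes they rose by 3.93 ± 0.58 (adjusted p = 0.0017) and 2.34 ± 0.49 (adjusted p = 0.01). The acinar factor gene Ptf1a ranged from -6.67 to -6.06 in iHep and from -6.37 to -5.72 in TTF. BRICHOS-domain genes other than gastrokines had 1 of 6 lower in iHep than TTF and 5 not called (median -0.26), namely Tnmd, a tendon glycoprotein gene, which fell by 8.08 ± 0.63 (adjusted p = 2.4e-05) with 1 of 4 iHep arrays above the limit. Bricd5 was the 1 of 6 called higher in iHep than hepatocytes (1.08 ± 0.27, adjusted p = 0.022), a call that ended in 8 of 22 alternatives. Over the 9 lists, 40 of 142 related genes were called higher in iHep than TTF and 3 lower, against 6.86% and 6.52% of all genes. Against hepatocytes 28 were higher and 10 lower (6.25% and 7.5% of all genes), and hepatocytes over TTF had 22 higher and 4 lower (7.47% and 4.91% of all genes). The 3 comparisons share arrays pairwise. The lists were drawn up with earlier results of these arrays known, so their shares are not independent of the data.

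Between hepatocytes and TTF the ranges of Reg3b, Reg3g, Gkn2 and Sftpd overlapped. There, beside 7.47% higher and 4.91% lower over all genes, 22 of 142 related genes were called higher and 4 lower. Several of them, such as Lcn2, Foxa2, Foxa3, Abca3 and Tnmd, were also called between iHep and TTF, and both comparisons share the TTF arrays. By limma 0 of 5 Reg genes and 0 of 17 stomach genes were called, with 0 and 1 at an unadjusted p under 0.05. Over all genes 12.4% were called in either direction, so a count of 0 in lists this short says little about these genes. Wfdc2, a whey-acidic-protein gene of mucosae, rose in hepatocytes by 12.05 ± 1.38 (adjusted p = 0.00038) and was 1 of 6 mucosal defence genes called higher among 23. Mbl2 rose by 11.30 ± 1.32 (adjusted p = 0.00043), at least 1738-fold, and Fcna by 6.17 ± 0.82 (adjusted p = 0.00087). Napsa, an aspartic protease gene of lung and kidney, rose by 3.79 ± 0.42 (adjusted p = 0.00028) and Abca3 by 1.04 ± 0.27 (adjusted p = 0.028), the Abca3 call ending in 11 of 22 alternatives. Foxa2 rose by 11.53 ± 0.34 (adjusted p = 3.3e-08) and Onecut2, a liver-enriched factor gene, by 6.20 ± 1.59 (adjusted p = 0.028), with the Onecut2 call ending in 5 of 22. Foxa1 rose by 4.28 ± 0.45 (adjusted p = 0.0002), Foxa3 by 5.57 ± 0.68 (adjusted p = 0.00054, at least 24.4-fold) and Gata6 by 1.84 ± 0.35 (adjusted p = 0.0072). Gata4 rose by 2.90 ± 0.79 (adjusted p = 0.035), a call that ended in 8 of 22, and Cdx2 was not called (3.08 ± 0.92, adjusted p = 0.052), although 6 of 22 alternatives called it. Tyk2 fell by 2.72 ± 0.49 (adjusted p = 0.0053). Socs1, a cytokine signalling inhibitor gene, fell by 3.21 ± 0.81 (adjusted p = 0.027), a call that ended in 7 of 22. Tnmd fell by 9.21 ± 0.63 (adjusted p = 1.2e-05), at least 198-fold. In the acinar list Ctrb1, a chymotrypsinogen gene, rose by 2.21 ± 0.64 (adjusted p = 0.046) and Ptf1a fell by 1.17 ± 0.32 (adjusted p = 0.035), calls that ended in 11 and 8 of 22. Macrophage markers also differed here, with 6 of 7 higher in hepatocytes, and their part in the Fcna difference was not tested.

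The genes whose level ran most like each of the 4 over all 13 arrays were found by Pearson correlation, given as a description since the arrays fall into groups and share their scaling. For Reg3b the 5 nearest were Sptssb (0.975), Sema4g (0.971), Sftpd (0.970), Paqr5 (0.970) and Pls1 (0.965). For Reg3g they were Sprr2a1 (0.977), Oit1 (0.974), Aldh3a1 (0.973), Anxa10 (0.968) and Sgsm3 (0.968). For Gkn2 they were Bean1 (0.982), Clca1 (0.980), Abcc8 (0.977), Car2 (0.976) and Tff1 (0.964). For Sftpd they were Sprr2a1 (0.982), Eps8l3 (0.981), Sema4g (0.978), Sptssb (0.975) and Lgals4 (0.971). Sftpd was among the nearest genes of Reg3b, and Sprr2a1, a small proline-rich protein gene of epithelia, was the nearest to both Reg3g and Sftpd. Its level averaged 6.35 in iHep, 6.02 in TTF + 3TF, 1.39 in hepatocytes and 0.80 in TTF. Among the 4 genes the correlations ran from 0.871 (Gkn2 with Sftpd) to 0.970 (Reg3b with Sftpd).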

How the data were processed

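RNA of 13 mouse cell samples was hybridised to 1 one-colour Cy3 Agilent array each. The deposited table holds linear intensity values from Agilent Feature Extraction 10.5.1.1, per the submitters' processing notes. Neither background handling nor slide, scan date or batch is given in the sources used here. The 75th percentiles differ between arrays, so the table had not been brought to a common percentile.

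Of 45018 features, 33653 had 1 gene symbol in the platform annotation, 56 several and 11309 none. The log2 value of each feature was reduced by that of the 75th percentile of its array, and the probes of a gene were averaged, which left 19087 genes. The local floor is the lowest value among 101 neighbouring features, and 3 times the floor is the limit of measurement. For "at least" folds, each dim array counts at its limit or at its own level, whichever is larger. A gene with several probes counted as above the limit when any of its probes was, and its limit was the lowest among its probes. For such a gene the "at least" fold may be too high. The 3 replicated groups (TTF, iHep, hepatocytes) entered 1 limma 3.58.1 model (R 4.3.3), with p-values adjusted by Benjamini-Hochberg over every gene. A gene was called at an adjusted p under 0.05 together with a difference of 2-fold or more. MEF and TTF + 3TF, with 1 array each, stayed outside the model. Python 3.11.15 and pandas 2.3.3 were used for the remaining steps. In simulated iHep and TTF data over 19087 genes, 26% of changes of 1.5 log2 units were recovered, 42% of 2, 76% of 3 and 88% of 4, with 3 false calls. The simulation changed 50 genes at each size and gave a gene the same spread in every group. In the data 13.4% of genes were called between iHep and TTF and spread differed between groups, so these rates need not hold there. The number of arrays limits the precision.

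The 4 genes and the lists were chosen with earlier results of these data known. Related genes named in the text are a set of family members, partners and regulators, and for each list and comparison the called genes at the extremes, up to 2 in each direction. The genes most alike in pattern were taken from those above the limit on at least 4 arrays, leaving out provisional symbols. Alternatives covered scaling, probe choice, low values, a pseudocount of 16, the samples fitted, a replicate block and leaving out arrays.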

Additional observations from a re-analysis of the deposited data

Results flagged for a closer look

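Sftpd on iHep replicate 1 stood apart from the other colonies. Its level there was -0.44, against 2.86 to 3.23 on iHep replicates 2 to 4, and the gap to the nearest colony was 0.899 of the whole range, where 0.829 was the mark for a closer look among 4 values. This is a description, since the spread between colonies was part of what singled out the 4 genes. With 8 sets of 4 arrays examined (iHep and hepatocytes) and about 1 in 20 passing by chance, 1 such value is unremarkable.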

How the results depend on the processing

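For the 4 genes 246 of 252 alternative differences moved by less than the replicate SD. The sign changed in 7, all of Reg3g between hepatocytes and TTF, where the difference was near 0 (-0.64 to 0.41). Some alternatives could not move a difference, such as leaving out an array outside the comparison or choosing the brightest probe of genes with 1 probe. The replicate SD also holds the spread between colonies, so even the Gkn2 values of 15.77 and 8.68 below counted as within it. The 246 thus overstate how stable the differences were. With a pseudocount of 16, iHep minus TTF was 12.27 for Reg3b, 13.95 for Reg3g and 8.44 for Sftpd, and iHep minus hepatocyte was 13.90 for Reg3g, since the pseudocount raises values near the floor. Alternatives that left out colonies in pairs, and the common floor, were chosen after seeing the data. Reg3b over TTF was 15.76 without colonies 1 and 2 and 12.78 without colonies 3 and 4. Gkn2 over TTF was 15.77 and 8.68 in those cases, 14.93 without iHep replicate 2, and 11.04 to 14.93 when any 1 array was left out.

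Counts over all genes depended on single arrays and on scaling. Leaving out 1 array gave 760 to 1412 higher and 751 to 1338 lower genes in iHep over TTF (lowest without TTF replicate 3, and 789 and 785 without TTF replicate 2), and 732 to 1517 and 449 to 1024 in hepatocytes over TTF (lowest without TTF replicate 3, then 797 and 451 without TTF replicate 2, and 606 lower without hepatocyte replicate 2). Scaling to the median moved the median difference of all genes to 0.22 for iHep minus hepatocyte and -0.33 for hepatocyte minus TTF. It gave 1832 higher and 1008 lower genes for iHep over hepatocytes (64.5% higher, against 45.4% in the main scaling) and 996 and 1923 for hepatocytes over TTF (34.1% against 60.3%). Quantile normalization gave 49.3% higher for hepatocytes over TTF. Without colonies 1 and 2 the counts were 2016 higher and 1995 lower in iHep over TTF and 1922 and 2218 in iHep over hepatocytes.

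Of the related genes, iHep over TTF had 63 higher and 5 lower without colonies 1 and 2, and 11 lower without colonies 3 and 4, while leaving out 1 array gave 27 to 51 and 2 to 3. For iHep over hepatocytes there were 57 higher without colonies 1 and 2, and 22 to 44 when leaving out 1 array, the most without iHep replicate 2. For hepatocytes over TTF, leaving out 1 array gave 14 to 26 higher and 2 to 6 lower, and the lower count was 7 with quantile normalization, 11 with median scaling, 13 with only the groups compared and 12 without either pair of colonies. Same-numbered arrays did not deviate together (correlations from -0.06 to 0.11). With the replicate block 32 related genes were higher and 2 lower in iHep over TTF, and the 4 genes differed by 13.59 (Reg3b), 15.33 (Reg3g), 11.76 (Gkn2) and 9.83 (Sftpd). Of 64 called named results 47 kept their call in every alternative, and of 49 not called 15 gained one in some alternative. The cause of these shifts was not tested. Values under 3 times the floor limit what can be said of the low groups.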
